A study of Mus musculus with 2 samples.

Results

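High-mitochondrial barcodes were examined in single-cell transcriptomes of alveolar macrophages (AMs), the resident phagocytes of the airspace. A barcode was taken as high-mitochondrial when at least 500 genes were detected in it and more than 10% of its unique molecular identifiers (UMIs, tags that count captured RNA molecules) came from the 13 protein-coding genes of the mitochondrial genome. The control library held 977 such barcodes among 7162 with at least 500 genes, and the tumor library held 764 among 8430, which makes 1741 of 15592 in both libraries and of 17660 barcodes in all. The barcodes were thus chosen by 2 measured values, the mitochondrial share and the number of genes detected, and these values are given below as a description. They were compared, within each library, with the 6185 control and 7666 tumor barcodes of at least 500 genes and at most 10% mitochondrial UMIs. The name "damaged" for such barcodes is a label, since no viability readout belongs to a barcode.

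AMs were sorted from the lungs of female C57BL/6 mice at an age of 10 weeks after dead cells had been removed with a viability dye. The study defines AMs as the CD45-positive, autofluorescent cells that carry F4/80 and Siglec-F. The control library came from vehicle-control mice, and the tumor library from mice whose left lung had been injected with Lewis lung carcinoma (LLC) cells of the same strain. There was 1 droplet library of each condition, made with a 3′-end chemistry, so no difference between control and tumor could be tested, and any difference between the libraries could not be told apart from the condition. The number of mice behind each library was not given in the sources used here.

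A macrophage holds its RNA in several places. Nuclear RNAs such as *Malat1* stay near chromatin, mRNAs of secreted and membrane proteins are translated on the endoplasmic reticulum, most other mRNAs are free in the cytosol or on free ribosomes, and mitochondrial mRNAs lie inside the organelle. When the outer membrane of a cell breaks, soluble cytoplasmic RNA can leak out while mitochondria and nucleus remain, and for this reason a high share of mitochondrial RNA is widely used as a sign of a damaged cell in droplet libraries.

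The share of barcodes over the limit was 13.6% in the control library (exact binomial interval 12.9% to 14.5%) and 9.06% in the tumor library (8.46% to 9.70%). These and all later intervals are at 95% and cover counting error only, since UMIs and barcodes of 1 library are not replicates. The mitochondrial share of the high-mitochondrial barcodes had a median of 16.7% and a maximum of 46.8% in control, and 17.1% and 49.5% in tumor. Around the limit the barcodes formed a continuum. In control, 96 barcodes lay between 9% and 10% and 90 between 10% and 11%. In tumor the corresponding numbers were 65 and 48. *Malat1* stood at 36326 CPM (UMIs of a gene per 1e6 non-mitochondrial UMIs of the group) just outside and 51420 just inside the limit in control, and at 41677 and 45367 in tumor. Below 500 genes, barcodes over 10% were the rule, with 91.2% of 1323 in control and 88.5% of 745 in tumor.

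**Figure D1:**
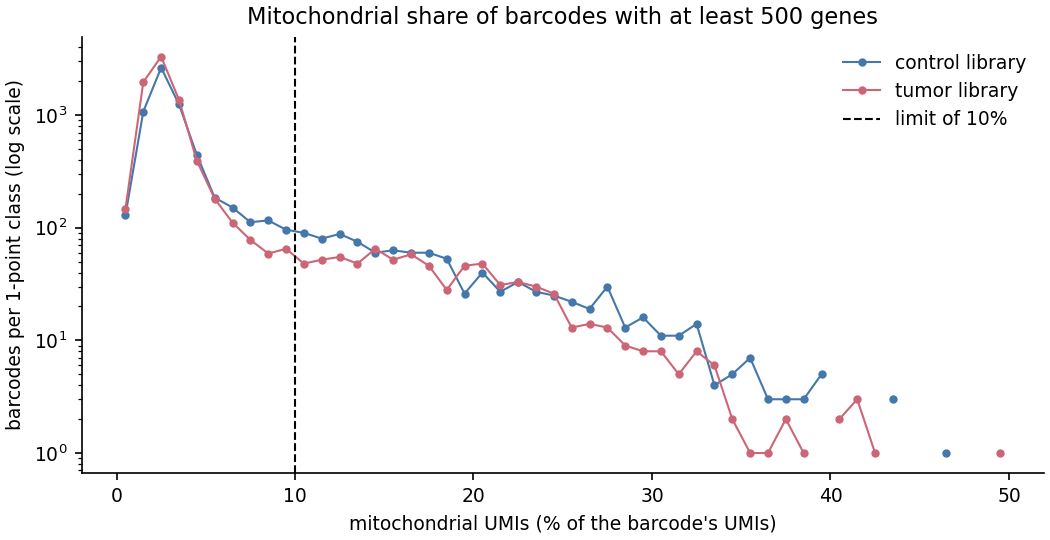
Number of barcodes with at least 500 genes (log scale) in each 1-point class of the mitochondrial share of UMIs (%), by library, with a dashed line at the limit of 10%. Classes without a barcode are left as gaps, and no separate peak stands above the limit in either library.

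High-mitochondrial barcodes were shallow. Their median was 1788 UMIs and 863 genes in control, against 10370 UMIs and 3173 genes in the comparison barcodes. In tumor they had 1602 UMIs and 789 genes, against 8264 UMIs and 2793 genes. Among barcodes with fewer than 1000 non-mitochondrial UMIs, 76.3% in control and 75.3% in tumor were over the limit. From 4000 to 8000 such UMIs the shares were 1.45% and 0.204%. At 8000 or more, 1 of 4281 control barcodes and 0 of 3878 tumor barcodes were over it. No doublet caller was run, and 25 barcode sequences occurred in both libraries, of which 1 in each library was over the limit.

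The excess of the mitochondrial share came with few other UMIs more than with many mitochondrial ones, which the rule itself fixes in part. Mitochondrial UMIs per barcode had a mean of 345 in the high-mitochondrial and 300.3 in the comparison barcodes of control, and of 318 and 238 in tumor. All other UMIs together had a mean of 1663 against 10185 in control and of 1466 against 8737 in tumor, that is 6.12-fold and 5.96-fold fewer. Among the 13 mitochondrial mRNAs the proportions were close to those of the comparison barcodes. *mt-Co1*, a core subunit of cytochrome oxidase, made up 19.8% of mitochondrial UMIs against 20.6% in control, and 23.3% against 24.6% in tumor. The largest shift was in *mt-Nd6*, the only mRNA from the light strand, with 0.1497% against 0.0942% in control (log2 ratio 0.67, 0.52 to 0.81) and 0.172% against 0.105% in tumor (0.71, 0.55 to 0.86). *mt-Atp8* and *mt-Nd4l*, which each overlap a longer neighbour, also had larger shares in both libraries, with log2 ratios from 0.37 to 0.50. *mt-Nd1* and *mt-Nd3* had smaller shares, with log2 ratios from −0.39 to −0.18.

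Counted per barcode, nuclear RNAs were nearer to the level of the comparison barcodes than cytoplasmic mRNAs. *Malat1*, a nuclear speckle RNA, had a mean of 96.2 UMIs per high-mitochondrial barcode against 105 in control, and of 106 against 78.8 in tumor. *Neat1*, the scaffold of paraspeckles, had 9.83 against 10.2 in control and 11.7 against 6.77 in tumor. The middle 50% of barcodes overlapped for both RNAs in both libraries. The 6 nuclear long noncoding RNAs compared had from 0.467 (*Tug1*) to 1.01 (*Firre*) times the UMIs per comparison barcode in control, and from 0.641 (*Tug1*) to 1.73 (*Neat1*) times in tumor. *Firre* was below 20 CPM in the comparison barcodes and was compared only because of its level in the high-mitochondrial ones. The upper end in control was therefore set by the filter. mRNAs of cytosolic ribosomal proteins stood at the other end, with 86.2 UMIs per barcode against 1413 in control and 53.2 against 997 in tumor. The actin and tubulin list had 37.6 against 542 in control and 28.8 against 469 in tumor. The nuclear-encoded subunits of the respiratory chain had 15.6 against 237 in control and 11.5 against 189 in tumor. Lysosomal protein mRNAs lay between, with 37.3 against 240.3 in control and 30.02 against 297 in tumor, and so did those of secreted proteins, with 55.6 against 432 and 42.6 against 437.

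**Figure D2:**
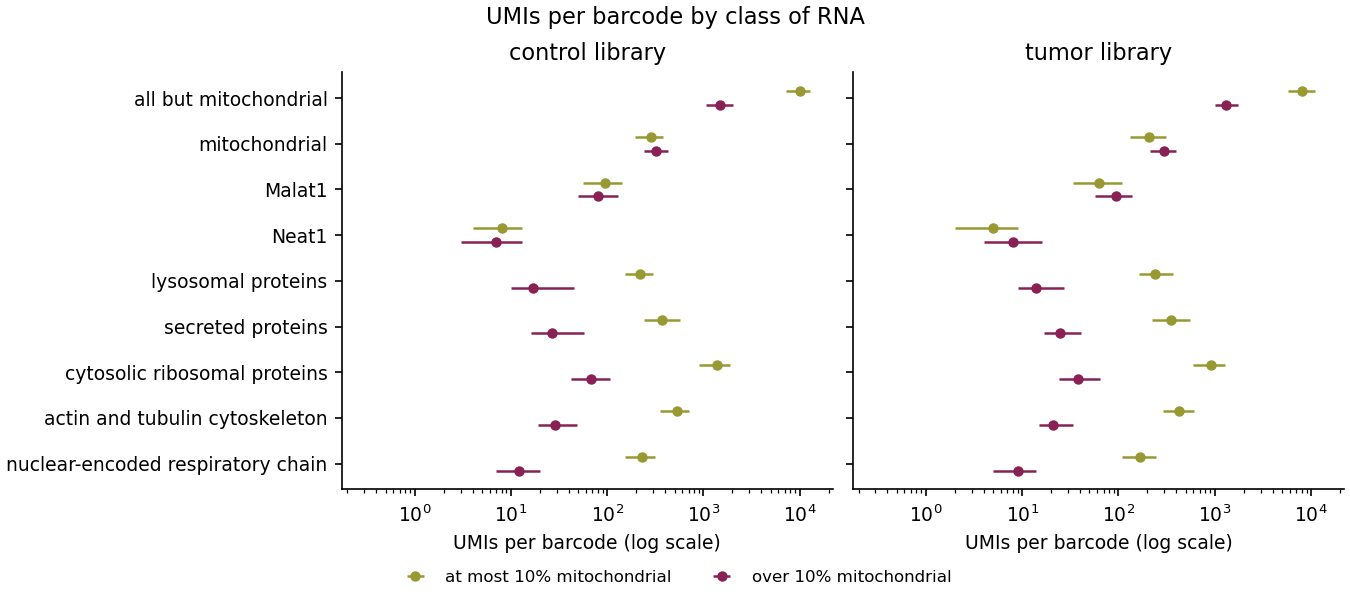
UMIs per barcode (log scale) for classes of RNA in barcodes over and at most 10% mitochondrial, by library. Points are medians over barcodes and bars run from the lower to the upper quartile. The bars of the 2 groups overlap for mitochondrial RNA, Malat1 and Neat1. They are apart for the lysosomal, secreted, ribosomal, actin and tubulin, and respiratory chain lists, and for all other UMIs together.

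Of the 5749 genes compared, which had a mean of at least 20 CPM in each library with mitochondrial genes left out of the counts and totals, few were as frequent per barcode as in the comparison. In both libraries at once, 11 genes had at least as many UMIs per high-mitochondrial barcode: *Fam71a*, *Tchh*, *Gm43329*, *Gm43813*, *Plekhg2*, *Gm17024*, *Gm48027*, *Gm26917*, *Scgb1a1*, *Firre* and *Tsix*. *Firre* and *Tsix* are noncoding RNAs of the X chromosome, and *Tsix* overlaps *Xist* on the opposite strand. These 11 were named after their values were seen. All but *Gm26917* were below 20 CPM in the comparison barcodes of both libraries and passed the minimum only through the high-mitochondrial barcodes, so that their direction was set by the filter. By library, 13 genes in control and 43 in tumor met this.

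Relative to the other non-mitochondrial RNA, 17.3% of the genes were at least 2-fold higher in CPM and 13.4% at least 2-fold lower in the high-mitochondrial barcodes of control. In tumor the shares were 21.4% and 16.7%. In both libraries, 885 genes (15.4%) were higher and 656 (11.4%) lower, and 0 genes were past 2-fold in opposite directions. The 885 genes make up 88.9% of the genes higher in control and 72.0% of those in tumor, and the 656 make up 85.0% and 68.3% of the genes lower in each. Across genes, which are not independent replicates, the log2 ratios of the 2 libraries had a Pearson correlation of 0.93. The median log2 ratio over all genes was 0.14 in control and 0.09 in tumor. Of the 5749 genes, 5298 reached 20 CPM in the comparison barcodes of both libraries as well, and among these 649 were higher and 656 lower in both.

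Depth moved these counts. When the comparison barcodes were weighted to the depths of the high-mitochondrial ones, 38 genes were higher and 26 lower in both libraries. Shallow comparison barcodes often lay close to the limit themselves. When only barcodes of at most 5% mitochondrial UMIs were used and weighted to the same depths, an alternative added after the data were seen, 272 genes were higher and 272 lower. Between 2000 and 3000 non-mitochondrial UMIs, *Malat1* stood at 49539 CPM in 178 high-mitochondrial control barcodes, at 26010 in 212 comparison barcodes and at 12515 in the 90 of these at or below 5%. In tumor it stood at 70381 CPM in 96 barcodes, at 17975 in 236 and at 9294 in 157. Below 1000 such UMIs the tumor values were closer, at 69943 in 189 barcodes, 57841 in 62 and 44457 in 27. The control values there stayed apart, at 63999 in 200 barcodes, 30805 in 62 and 20179 in 40.

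Nuclear noncoding RNAs were among the genes with the largest ratios. *Gm26917*, which overlaps ribosomal RNA repeat sequence at chr17:39843013-39846341 of GRCm38, stood at 2147 CPM against 207 in control (log2 ratio 3.37, 3.32 to 3.43) and at 2322 against 254 in tumor (3.19, 3.13 to 3.25). *Malat1* stood at 57842 against 10287 CPM in control (2.491, 2.481 to 2.501) and at 72108 against 9020.5 in tumor (2.999, 2.988 to 3.0095). *Neat1* had log2 ratios of 2.57 and 3.37. *Lncpint*, a p53-linked noncoding RNA, had 2.59 and 3.08. *Kcnq1ot1*, the imprinted antisense RNA that silences its neighbours, had 2.32 and 2.92, and *Xist*, which coats the inactive X chromosome, 2.17 and 2.65. Of 12 nuclear long noncoding RNAs listed 6 were compared, and the 5 of these that reached 20 CPM in the comparison barcodes were at least 2-fold higher in both libraries. *Firre* passed the minimum only through the high-mitochondrial barcodes. The 6 had a median log2 ratio of 2.41 in control and 2.96 in tumor. Weighted to the same depths the medians were 0.94 and 1.10, and against barcodes of at most 5% weighted so they were 1.58 and 1.83. The 3 RNAs that overlap ribosomal RNA repeats were also higher, *Gm42418* with 1.41 and 1.22 and *AY036118* with 1.29 and 1.27. Their median, weighted to the same depths, was 0.99 in control and 0.54 in tumor. Reads from ribosomal RNA itself can be counted to these 3 genes.

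Some protein-coding genes were among the 12 largest ratios as well. *Slc5a3*, the myo-inositol transporter, had log2 ratios of 2.43 in control and 2.56 in tumor. *Dgat1*, which makes the final step of triglyceride synthesis, had 2.23 and 2.32, and the splicing factor gene *Prpf39* had 2.15 and 2.60. *Dleu2*, a microRNA host RNA, and *Gm47283*, annotated on chromosome Y and therefore of uncertain origin in these female mice, had ratios from 2.13 to 2.89. The last of the 12, ENSMUSG00000095041, had no symbol and had 2.17 and 2.40. Of the 43 noncoding genes that reached 20 CPM in the comparison barcodes, 17 were at least 2-fold higher and 7 lower in both libraries, beside 649 and 656 of the 5298 genes of all kinds.

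Ribosomal and respiratory chain mRNAs were at a deficit in both libraries. Over all genes compared, 13.4% in control and 16.7% in tumor were at least 2-fold lower. Of 82 cytosolic ribosomal protein genes, 78 in control and 81 in tumor were at least 2-fold lower and 0 were higher, with median log2 ratios of −1.44 and −1.67. *Rplp1* stood at 1374 CPM against 3502 in control and at 1156 against 3474 in tumor. Of 82 nuclear-encoded respiratory chain genes, 71 were lower in each library, with medians of −1.26 and −1.51. *Cox8a*, a small subunit of cytochrome oxidase, stood at 262 CPM against 815 in control and at 219 against 758 in tumor. *Atp5c1*, *Atp5g2* and *Ndufb9*, which encode parts of ATP synthase and complex I, were among the 12 smallest ratios, with −1.72, −1.61 and −1.61 in control. Mitochondrial ribosomal protein genes were lower for 36 of 59 in control and 42 of 59 in tumor, with medians of −1.04 and −1.33. *Mrpl38* went the other way, with 1.73 and 1.74, and had 0.82 and 0.016 when the comparison was weighted to the same depths. Of 15 genes of mitochondrial gene expression and import, 6 in control and 5 in tumor were lower, with medians of −0.80 and −0.94, and the 2 higher in each are no larger a share than among all genes. With the comparison weighted to the same depths, the mitochondrial ribosomal median was −0.38 in control and −0.64 in tumor. That of mitochondrial gene expression and import was −0.24 and −0.27.

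mRNAs of the cytoskeleton, iron storage and metabolism lay on both sides. *Tmsb4x*, which encodes an actin-binding peptide, stood at 7810 CPM against 23727 in control (log2 ratio −1.603, −1.63 to −1.58) and at 6844 against 24138 in tumor (−1.82, −1.85 to −1.79). *Actb* had −1.32 and −1.64. Over all genes compared, 13.4% in control and 16.7% in tumor were at least 2-fold lower. Of 22 actin and tubulin genes, 12 in control and 13 in tumor were at least 2-fold lower, with medians of −1.145 and −1.16. The 1 that was higher in control and 0 in tumor are no larger a share than among all genes. The ferritin genes *Fth1* and *Ftl1*, which store iron, had ratios from −1.55 to −1.13, whereas *Hmox1*, heme oxygenase, had 0.28 and 0.43. In this list of 16 iron and antioxidant genes, 7 in control and 8 in tumor were lower. The 1 that was higher in each library is no larger a share than among all genes. Of 16 genes of lipid binding and oxidation, 8 were lower in each library, and the 1 higher in each is no larger a share than among all genes. Among them *Fabp5* had −1.55 and −1.41 and *Dbi* −1.59 and −1.58, both small carriers. With the comparison weighted to the same depths, *Fabp5* had −0.27 and −0.14 and *Dbi* −0.79 and −0.96. Of 12 glycolytic enzymes, 3 in control and 4 in tumor were lower, and the 1 and 2 that were higher are no larger a share than the 17.3% and 21.4% of all genes, with *Gapdh* at −1.48 and −1.62 and *Pfkp* at 1.19 and 1.64. The others of the 12 smallest ratios were *Nme2*, *Gng5*, *Ost4*, *Hint1*, *Sec61b*, *Myl12a* and *Lamtor2*, from −1.81 to −1.5997. Weighted to the same depths, the medians of the ribosomal, respiratory chain, actin and tubulin, iron and lipid lists were between −0.85 and −0.34. That of the glycolytic enzymes was −0.27 in control and changed sign to 0.05 in tumor.

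**Figure D3:**
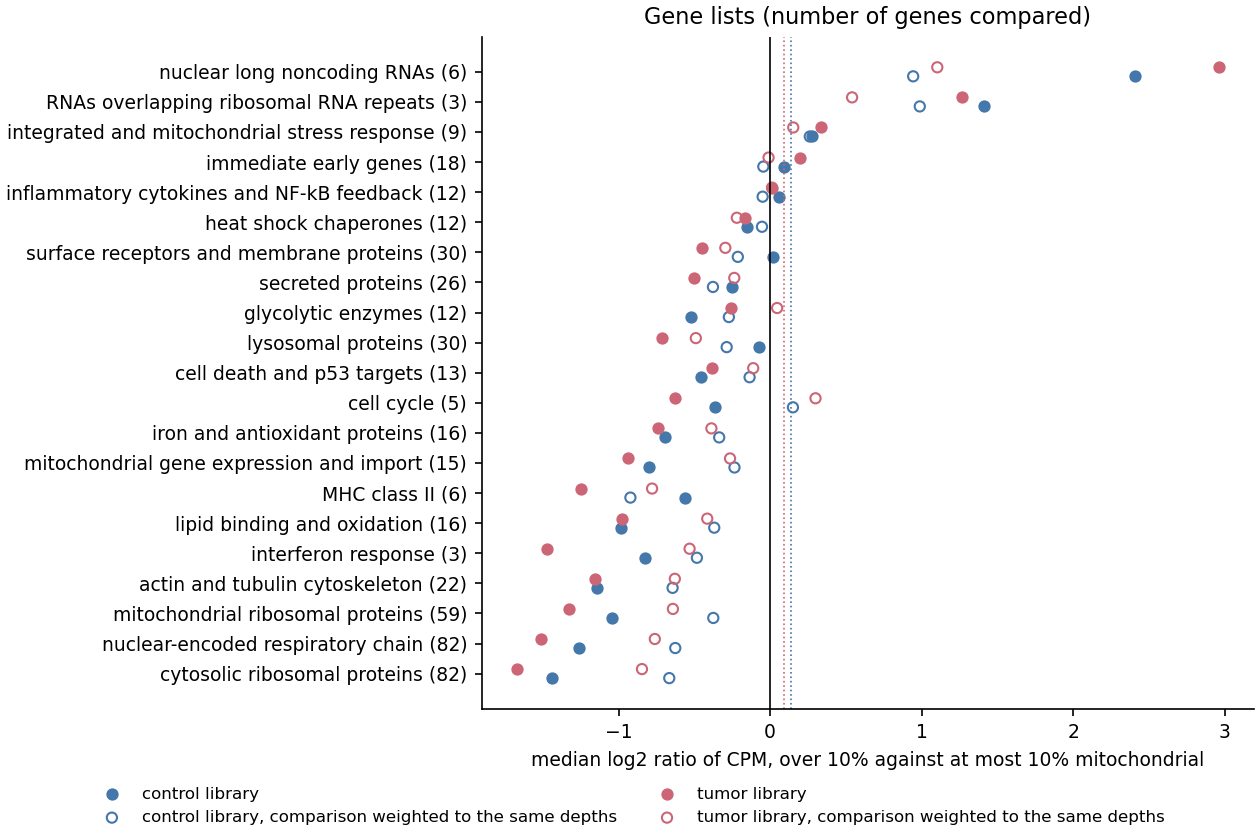
Median log2 ratio of CPM, barcodes over 10% against barcodes of at most 10% mitochondrial UMIs, for each gene list with the number of genes compared in parentheses. Filled points use all comparison barcodes and open points the same barcodes weighted to the depths of the high-mitochondrial ones, dotted lines are the medians of all genes, and the nuclear RNAs lie at the right and the ribosomal and respiratory chain lists at the left in both libraries.

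Against all comparison barcodes, mRNAs of the secretory route had medians nearer to that of all genes than the ribosomal and respiratory chain lists. Of 30 lysosomal protein genes, 0 in control and 4 in tumor were at least 2-fold lower and 0 were higher in either, with medians of −0.08 and −0.72, and the 4 are no larger a share than the 16.7% lower among all genes in tumor. *Ctsd*, the aspartic protease of lysosomes, stood at 5494 CPM against 5441 in control and at 4846 against 8201 in tumor. *Psap*, the precursor of the saposins, had log2 ratios of 0.05 and −0.82. Among 30 surface receptor and membrane protein genes the medians were 0.02 and −0.45, with *Cd44*, a hyaluronan receptor, at 0.75 and 0.57 and *Tyrobp*, a short adaptor, at −1.37 and −1.65. With the comparison weighted to the same depths, *Cd44* had 0.077 and 0.0018. Among 26 secreted protein genes, 3 in control and 10 in tumor were lower and 2 and 3 higher, with medians of −0.26 and −0.50. The shares over all genes were 13.4% lower and 17.3% higher in control and 16.7% and 21.4% in tumor, and of the counts for secreted proteins the 10 in tumor alone are a larger share. *Chil3*, a secreted chitinase-like lectin of AMs, stood at 11959 CPM against 12000 in control and at 5903 against 10806 in tumor. *Chil3* had log2 ratios of −0.57 in control and −0.95 in tumor when the comparison was weighted to the same depths. Within bins of depth in control, it was at −1.41 below 1000 non-mitochondrial UMIs and at 0.19 between 3000 and 4000. Its near equality in control was thus not kept at matched depth. *Lyz2*, lysozyme, stood at 9097 CPM against 16389 in control and at 6651 against 18594 in tumor. The genes of MHC class II had medians of −0.56 and −1.25, with 0 and 6 of 6 at least 2-fold lower. Weighted to the same depths, the lysosomal median was −0.29 in control and −0.49 in tumor, and that of the membrane proteins was −0.21 and −0.30, so that the latter changed sign in control. The secreted median was then −0.38 and −0.24 and that of MHC class II −0.92 and −0.78, and for both lists the order of the libraries turned. The MHC class II median in control was then below those of the ribosomal and respiratory chain lists, −0.67 and −0.63. In tumor it was below the respiratory chain median of −0.76. The difference between the libraries was not tested.

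The lysosomal and secreted lists were lower in each further class of the mitochondrial share, and no test of the difference from other lists was made. Of the control high-mitochondrial barcodes, 393 had 10% to 15% mitochondrial UMIs, 262 had 15% to 20% and 322 had over 20%. In tumor these were 268, 230 and 266. The summed level of the lysosomal list had log2 ratios to all comparison barcodes of 0.30, −0.34 and −0.92 over these classes in control, and of −0.26, −0.96 and −1.46 in tumor. Secreted protein mRNAs had 0.03, −0.69 and −1.07 in control and −0.42, −0.95 and −1.29 in tumor. The ribosomal protein list was already at −1.53 in the first class in control, with −1.47 and −1.17 in the next, and at −1.66, −1.75 and −1.56 in tumor. The actin and tubulin list had −1.22, −1.32 and −1.17 in control and −1.36, −1.52 and −1.52 in tumor. The respiratory chain list had −1.34, −1.40 and −1.16 in control and −1.38, −1.58 and −1.44 in tumor. Nuclear long noncoding RNAs reached 2.37 in the first class in control and then 2.58 and 2.55, and 2.85, 3.10 and 3.10 in tumor. Between 5% and 10%, below the limit, the nuclear RNAs already stood at 1.13 in control and 1.29 in tumor, the ribosomal list at −0.57 and −0.55, and the lysosomal list at 0.32 and 0.22. The mean number of non-mitochondrial UMIs fell along the same classes, with 4720 per barcode between 5% and 10%, then 2080, 1644 and 1170 in control, and 4274, 1728, 1451 and 1216 in tumor. Within bins of depth, against comparison barcodes of the same bin, the lysosomal list was at 0.16 between 3000 and 4000 such UMIs and at −0.92 below 1000 in control, and at 0.05 and −0.57 in tumor, where it was lowest between 1000 and 1500. The secreted list was at 0.16 and −0.88 in control and at 0.04 and −0.35 in tumor, and lowest between 1000 and 1500 in both, at −1.03 and −0.76. The ribosomal list was between −0.81 and −0.58 over these bins in control and between −1.19 and −0.18 in tumor. The heat shock list, of mainly cytosolic chaperones, also went down along the mitochondrial share, with −0.26, −0.51 and −0.56 in control and −0.32, −0.54 and −0.56 in tumor. Depth and mitochondrial share were not separated in these gradients.

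**Figure D4:**
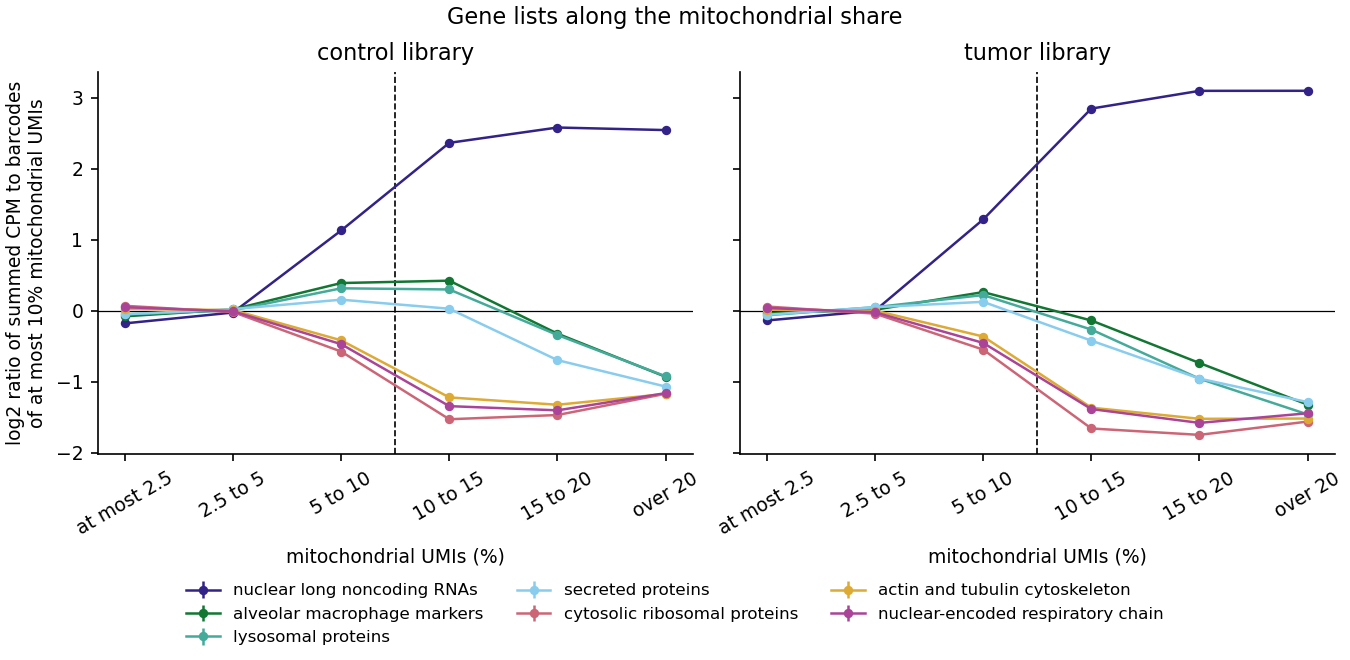
Log2 ratio of the summed CPM of 7 gene lists to all barcodes of at most 10% mitochondrial UMIs, along classes of the mitochondrial share (%), by library, with counting intervals of 95% as bars that are mostly within the points. Right of the dashed limit the ribosomal, actin and tubulin, and respiratory chain lists stay near one level, while the lysosomal, secreted and alveolar macrophage lists go down class by class.

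AM markers were detected throughout, although a UMI of so abundant a list is no check of a single barcode. All 16 AM markers were detected in the high-mitochondrial barcodes of both libraries, and each of the 977 and 764 barcodes had at least 1 UMI of the list, with a median of 22 in control and 16 in tumor against 293 and 241 in the comparison barcodes. Their summed level was 31688 CPM against 31396 in control and 20585 against 30687 in tumor. Along the 3 classes of mitochondrial share the log2 ratios of the sum were 0.42, −0.32 and −0.93 in control and −0.14, −0.73 and −1.32 in tumor. By gene, *Mrc1*, the mannose receptor, had 0.81 and 0.36, and *Marco*, a scavenger receptor, had 0.11 and 0.04. *Ear2*, a small secreted ribonuclease, had −0.57 and −1.21, and *Fabp4*, a fatty acid carrier, −0.87 and −0.18. Several of these directions turned when the comparison was weighted to the same depths, which gave −0.13 and −0.21 for *Mrc1*, −0.11 and −0.71 for *Marco*, and −0.37 and 0.15 for *Fabp4*.

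Markers of other cell types were low, and the epithelial sum was higher in the high-mitochondrial than in the comparison barcodes. The sum of 10 epithelial markers was 473 CPM in the high-mitochondrial barcodes against 138 in control, with 9 detected and *Krt18* at 0, and 154 against 47.1 in tumor, with 8 detected and *Sftpb* and *Krt8* at 0. *Sftpc*, surfactant protein C, stood at 194 CPM against 16.9 in control and at 55.4 against 9.63 in tumor, and *Scgb1a1*, the club cell secretoglobin, at 98.5 against 13.5 and at 54.5 against 7.21. *Cdh1* and *Epcam* did not follow, with log2 ratios of 0.096 each in control and of −0.78 and −0.34 in tumor. Along the 3 classes of mitochondrial share the sum was 321, 365 and 929 CPM in control and 171, 105 and 182 in tumor. In control 1 barcode held 18.6% of the UMIs of the list and 36.7% of those of *Sftpc*. The endothelial list was at 48.0 CPM against 8.68 in control, with all 6 detected, and at 11.6 against 9.41 in tumor, with *Kdr* at 0. It rested on 78 UMIs in control, of which 1 barcode held 30.8%, and 1 barcode held 63.6% of those of *Cdh5*. The monocyte or interstitial macrophage list was at 632 against 386 in control, with *C1qa*, *C1qc* and *Ly6c2* at 0, and at 1470.4 against 1042 in tumor, with *Ly6c2* at 0. *Fn1* made up most of it in both libraries, with 608 CPM against 369 in control and 1394 against 943 in tumor. In tumor *C1qb*, *C1qa*, *C1qc*, *Cx3cr1* and *Ccr2* went the other way, with log2 ratios from −2.397 to −0.71 on 2 to 8 UMIs each. T or NK cell markers numbered 1 UMI in control and 0 in tumor, of 7 markers, and mast cell or basophil markers 0 in both. Neutrophil markers were at 62.2 CPM against 72.4 in control and at 50.9 against 127 in tumor. Dendritic cell markers numbered 8 and 1 UMIs, B or plasma cell markers 4 and 1, fibroblast markers 5 and 9, and erythroid or platelet markers 9 and 5. A barcode with more UMIs of another list than of the AM list occurred 4 times over all lists in control and 6 times in tumor, among the high-mitochondrial ones. Such barcodes also occurred among the 6185 and 7666 comparison barcodes. In tumor all 6 were of the monocyte or interstitial macrophage list, which had 11 in the comparison. In control 2 were of the epithelial list, against 0 in the comparison. The endothelial list had 1 against 6, and the monocyte list 1 against 1. The part of these markers in the other results was not tested.

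Immediate early and inflammatory genes were near the median of all genes, and other stress lists lay on both sides of it. The 18 immediate early genes, which the dissociation of a tissue can induce, had medians of 0.09 in control and 0.20 in tumor, and none was past 2-fold. *Fosb* had 0.67 and 0.82. The 12 inflammatory cytokine and NF-kB feedback genes had 0.06 and 0.01, also with none past 2-fold. The 12 heat shock chaperones had −0.16 in both libraries. Among 9 genes of the integrated and mitochondrial stress response the medians were 0.28 and 0.34 and the ratios of the summed list 0.56 and 0.91, and *Slc7a11*, the cystine transporter, was the gene past 2-fold in both, at 663 CPM against 211 in control (log2 ratio 1.66, 1.57 to 1.75) and at 1017 against 222 in tumor (2.196, 2.11 to 2.28). *Ddit3*, the CHOP factor, had 0.92 and 1.21, and *Gdf15*, a stress cytokine, 0.56 and 0.83, while *Phgdh*, the first enzyme of serine synthesis, had −0.62 and −1.63. Of 13 cell death and p53 target genes, *Mdm2* had 0.99 and 1.46 and *Mcl1* 0.14 and 0.59, and the median was −0.45 and −0.38. The 3 interferon response genes compared had medians of −0.83 and −1.47, and the 5 cell cycle genes −0.37 and −0.63. Weighted to the same depths, *Slc7a11* had 0.83 and 0.91 and *Mdm2* 0.61 and 0.94. The interferon response median was then −0.48 in control and −0.53 in tumor. That of the cell cycle genes changed sign to 0.15 and 0.30, and that of the immediate early genes to −0.05 and −0.01.

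The ratios followed the length of the transcript. For 5747 of the genes 1 annotated transcript was taken from GENCODE vM21 (GRCm38), and the genes were divided by its length into 5 classes of equal number. The classes include genes below 20 CPM in the comparison barcodes, whose higher level was set by the filter. Of the 5749 genes compared, 5298 reached 20 CPM there in both libraries, and the classes were not recomputed on these. The shortest class, from 345 to 1658 bases, had a median log2 ratio of −0.98 in control and −1.07 in tumor, and 49.1% and 54.0% of its genes were at least 2-fold lower. The longest class, from 5256 bases, had 0.85 and 0.90, and 38.9% and 44.7% of its genes were at least 2-fold higher. The classes between lay in order at −0.18, 0.19 and 0.46 in control and at −0.25, 0.14 and 0.48 in tumor. The Spearman correlation across genes was 0.63 in control and 0.58 in tumor, over genes that share both libraries and their depth. Weighted to the same depths, the class medians ran from −0.47 to 0.26 and from −0.53 to 0.37.

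Genes with and without a signal for the secretory route were also set side by side within classes of length. Among genes of at least 100 CPM, 290 encode a protein with a hydrophobic stretch near its N-terminus, the feature by which signal peptides and first membrane segments are recognised, and 1343 do not. The stretch was called where the mean Kyte-Doolittle hydropathy of 10 residues reached 2 within the first 40, which held for 26 of 30 lysosomal, 28 of 32 secreted and 27 of 32 membrane protein genes of the lists, for 12 of 95 respiratory chain genes, for 2 of 85 cytosolic ribosomal protein genes and for 0 of 22 actin and tubulin genes. Within the shortest length class, the 78 genes with such a stretch had medians of −0.45, −1.02 and −1.10 along the classes of mitochondrial share in control, and the 345 without had −1.35, −1.32 and −1.13. In tumor the medians were −0.69, −1.28 and −1.45 with and −1.37, −1.53 and −1.37 without. In this class the 2 groups of genes were apart between 10% and 15% and close over 20%. In the next to shortest class in control the medians were also apart between 10% and 15%, at 0.28 with and −0.29 without. Over 20% they were close there, at −0.56 and −0.54. In tumor this class had −0.17 and −0.35 between 10% and 15%, and −0.90 and −0.56 over 20%. The middle and longer classes differed from the shortest one. In the middle class the medians over 20% were −0.67 with and 0.02 without in control, and −0.98 and 0.17 in tumor. In the longest class, between 10% and 15%, they were 0.94 and 0.95 in control, and in the class next to it 0.33 and 0.55 in tumor. In each of the 5 classes and both libraries the median of the genes with such a stretch was lower over 20% than between 10% and 15%. The median of the genes without it was also lower in 4 of the 5 classes in control, with −0.29 and −0.54 in the next to shortest class, for example, and in tumor in that class only, with −0.35 and −0.56.

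**Figure D5:**
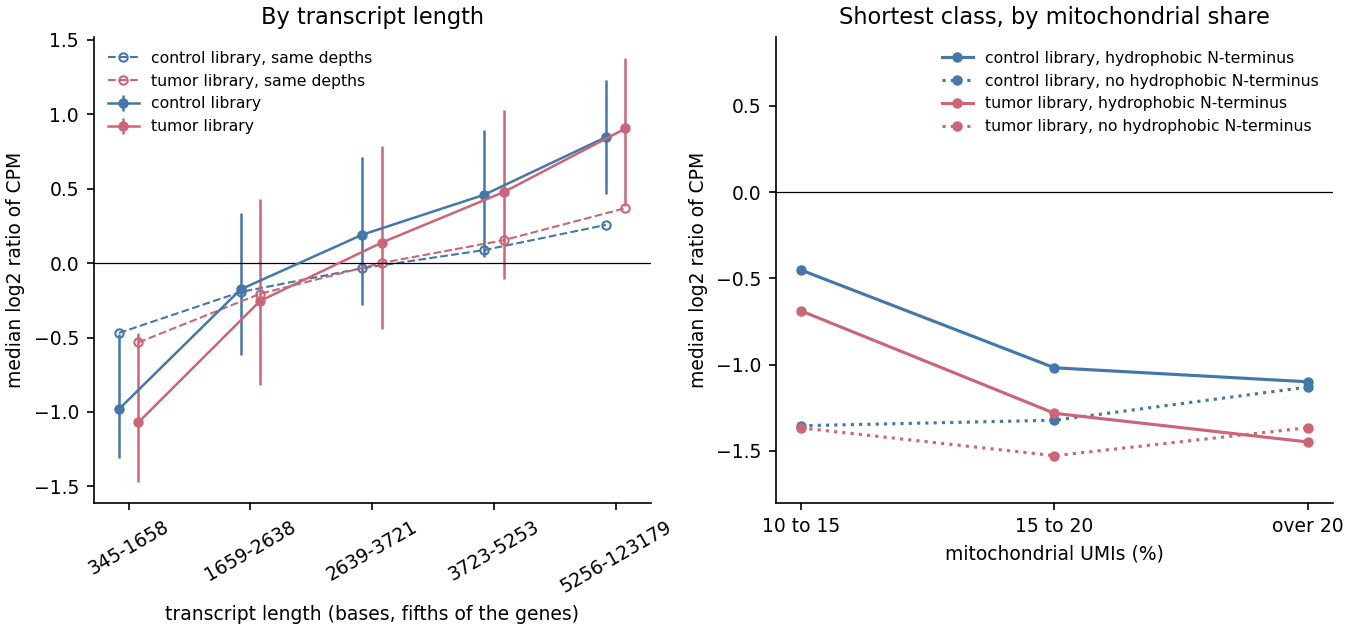
Left, median log2 ratio of CPM by class of transcript length (bases), with bars from the lower to the upper quartile of genes and open points for the comparison weighted to the same depths. Right, median log2 ratio in the shortest class of genes of at least 100 CPM, with and without a hydrophobic N-terminus, along the mitochondrial share (%), where the solid and dotted lines of a library start apart and end close together.

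Differences between the tumor and the control library were also present within the high-mitochondrial barcodes. *Inhba*, which encodes the subunit of activin A, stood at 137 CPM in control and 536 in tumor among high-mitochondrial barcodes, and at 47.0 and 152 among comparison barcodes, which gives log2 ratios of tumor over control of 1.96 (1.74 to 2.19) and 1.70 (1.64 to 1.76). Within each library it was higher in the high-mitochondrial barcodes, with log2 ratios of 1.55 in control and 1.82 in tumor. It had a UMI in 64 control and 174 tumor barcodes over the limit, and 5 barcodes held 29.1% of its UMIs in control and 17.2% in tumor. Against comparison barcodes of the same depths these 2 ratios were 1.95 and 0.88. *Marco* was lower in tumor in both sets, at −1.57 and −1.50, and at −0.97 in the comparison barcodes when weighted to the same depths. *Spp1*, osteopontin, had 1.65 among high-mitochondrial and 2.11 among comparison barcodes, and *S100a6* had 2.73 and 3.46. *Apoe*, the lipid carrier of macrophages, was the most unlike of the 17 genes set side by side without weighting to depth, with 2.62 (2.199 to 3.07) and 4.56 (4.48 to 4.63), at 34.5 CPM in control and 212 in tumor among high-mitochondrial barcodes and at 26.3 and 619 among the others. In *Apoe*, 5 barcodes held 33.9% of the UMIs in control and 42.9% in tumor. Weighted to the same depths, an alternative added after the data were seen, the comparison barcodes had 2.15 for *Apoe*, 1.22 for *Spp1*, 2.04 for *S100a6* and 3.03 for *Inhba*, so that the order of high-mitochondrial and comparison barcodes turned for these 4 genes. *Apoe* was then no longer the most unlike. *Ifi27l2a*, with 15 UMIs in the high-mitochondrial control barcodes, had 4.23 among high-mitochondrial and 2.56 among the weighted comparison barcodes. Without weighting, *Il1b* had 2.89 and 2.34, and *Junb* 1.38 and 0.96. Within each library, 9 genes taken from those the study names for AMs or tumor-associated macrophages, some of them chosen there on these samples, had medians of −0.68 in control and −0.87 in tumor, with 1 higher in each and 1 and 4 lower, which in control is no larger a share than the 17.3% and 13.4% over all genes. The 9 genes highest in the tumor library, taken from earlier results, had −0.09 and −0.55, with 2 and 4 lower and 1 higher in each, the last no larger a share than among all genes. With the comparison weighted to the same depths this list had −0.59 and −0.10, so that the order of the libraries turned. The 9 genes named by the study then had −0.49 and −0.53. With 1 library of each condition none of the differences between libraries was tested.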

How the data were processed

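The authors sequenced 3′ droplet libraries. With Cell Ranger they obtained the deposited tables, which hold untransformed counts of UMIs for every gene in every barcode. The study's methods name another version of it than the submitters' processing notes, which give Cell Ranger 4.0.0, bcl2fastq 2.20 and the mm10 build. Doublets and hashtag reads were not treated here. Of 32285 gene identifiers 32158 were matched to a symbol, and for a symbol on several identifiers the one with most UMIs was used. Members were barcodes of at least 500 genes and over 10% mt- UMIs. UMIs were summed over the barcodes of each group and given as CPM without mt- genes, for genes with a mean of at least 20 CPM in each library. Ratios carry exact conditional binomial intervals at 95%, and shares exact Clopper-Pearson ones. No test was possible with 1 library per condition, and no p-value was computed.

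The genes named are the 12 with the largest and the 12 with the smallest ratio in both libraries at a mean of at least 100 CPM, the 6 members of highest level of each list, the mt- genes, the AM markers and the genes the study names. The members and lists were chosen with earlier results of these data known, and the list of genes highest in the tumor library was taken from such results. The alternatives changed the mitochondrial limit, the minimum of genes, the comparison barcodes, their depths over 8 bins, the weight of barcodes, the 6% of barcodes with the most UMIs, the scaling and the minimum level. Ratios and intervals were tested on simulated data. Python 3.11.15, numpy 2.4.6, scipy 1.17.1, pandas 2.3.3 and matplotlib 3.10.9 were used. Coordinates and transcripts are from GENCODE vM21 (GRCm38).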

Additional observations from a re-analysis of the deposited data

Results flagged for a closer look

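For 7 named genes the log2 ratio of high-mitochondrial over comparison barcodes had opposite signs in the 2 libraries, with both counting intervals away from 0. The difference between the libraries was not tested, and with 1 library of each condition it could not be. *Itgax*, the CD11c integrin, had 0.44 in control and −0.18 in tumor. *Lpl*, lipoprotein lipase, had 0.33 and −0.0552. *Laptm5* and *Psap*, both of lysosomes, had 0.0665 and −0.46, and 0.0467 and −0.82. *Dusp1*, a phosphatase of MAP kinases, had 0.26 and −0.18. *Junb*, an AP-1 factor, went the other way with −0.25 and 0.17, and so did *Car4*, a membrane carbonic anhydrase, with −0.34 and 0.31. The summed level of the surface receptor and membrane protein list had 0.0411 and −0.15, and that of the cell death and p53 target list −0.28 and 0.10. None of these values was past 2-fold. With the comparison weighted to the same depths, each of the 7 genes was below 0 in both libraries, for example *Itgax* with −0.021 and −0.29, *Lpl* with −0.31 and −0.44, and *Junb* with −0.51 and −0.31.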

How the results depend on the processing

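Of the 163 values of named genes and 14 list medians past 2-fold, each kept its direction under all 11 alternatives that apply to genes, 1 of them added after the data were seen, and under 2 more for lists (13 medians at the minimum of 100 CPM). How many stayed past 2-fold varied. It was 34 of 163 values and 1 of 14 medians with the comparison weighted to the depths of the members, 100 and 6 with barcodes of at most 5% weighted so, 44 and 3 with a limit of 5%, and between 138 and 163 values and 10 and 14 medians under the others. The share of barcodes over the limit was 22.9% in control and 14.9% in tumor at a limit of 5%, 4.496% and 3.16% at 20%, 23.6% and 14.5% with a minimum of 200 genes, and 5.38% and 2.53% with 1000. Against 885 genes higher and 656 lower in both libraries, a limit of 5% gave 269 and 9, the comparison weighted to the same depths 38 and 26, barcodes of at most 5% weighted so 272 and 272, a minimum of 5 CPM 1376 higher, and one of 100 CPM 289 and 348. The other alternatives stayed within 1.5 times. Centring the ratios on their median gave 706 higher and 799 lower. The causes were not tested, apart from fewer genes being compared at 100 CPM. No paired analysis was possible because each condition has 1 library. Depth limits the shallow barcodes: below 1000 non-mitochondrial UMIs, 62 comparison barcodes were left in each library.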

Other observations

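Barcodes under 500 genes and over 10% mitochondrial UMIs, 1207 in control and 659 in tumor, were not among those described and had another make-up. Their median was 742 UMIs and 272 genes in control and 730 UMIs and 297 genes in tumor, with median mitochondrial shares of 44.5% and 37.4%. Mitochondrial UMIs per barcode had means of 348 and 303, close to those of the high-mitochondrial barcodes with at least 500 genes. *Malat1* was at 43007 CPM in control and 52648 in tumor, below the 57842 and 72108 of the latter. The cytosolic ribosomal protein list was at 98562 and 66716 CPM, above their 51856 and 36283, and the actin and tubulin list at 32799 and 28114, above their 22637 and 19624. *Gm42418* was at 186680 CPM in control and 184230 in tumor, against 92869 and 77969, and *Gm26917* at 4944 and 4900 against 2147 and 2322. The lysosomal list was lower, at 11893 and 12956 CPM against 22454 and 20475. These are values of the 2 libraries only, and no test was made.

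Among the 116 control and 86 tumor barcodes under 500 genes and at most 10%, *Malat1* was at 9261 CPM in control, near the 10287 of the comparison barcodes, and at 29169 in tumor, above their 9020.5. Their median mitochondrial count was 2 UMIs in control and 8.5 in tumor.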
